A study of Mus musculus with 11 samples.

Results

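The genes described here are 8 structural genes of simple epithelia: the keratins Krt7, Krt8, Krt18 and Krt19 and the claudins Cldn3, Cldn4, Cldn6 and Cldn7. They were chosen by name, and all 8 were found among the 48952 genes of the bulk RNA-seq table and among the 32285 genes of the single-cell matrices. Keratins form the intermediate filaments of epithelial cells as obligate pairs of a type II chain (Krt7, Krt8) and a type I chain (Krt18, Krt19), and Krt8 with Krt18 is the pair found in the earliest epithelia of the mouse embryo, trophectoderm and primitive endoderm (PrE). Claudins are membrane proteins with several transmembrane passes that build the strands of tight junctions, and which claudins a cell makes helps set what passes between neighbouring cells. Cldn4 and Cldn6 are known from the blastocyst, and Cldn3 and Cldn4 bind the Clostridium enterotoxin.

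The study asked how far endoderm cells resembling the early PrE can return to an epiblast (Epi) state, and its cells were naive extra-embryonic endoderm (nEnd), a mouse stem cell culture. For bulk RNA-seq, an untreated nEnd line with an OCT4-mCherry reporter was stained for the surface receptor PDGFRA, and cells that excluded DAPI were sorted by flow cytometry into PDGFRA-positive, reporter-negative cells (Pdgfra+), double-positive cells (DP) and reporter-positive, PDGFRA-negative cells (Oct4+), with 3 libraries each. For single-cell RNA-seq, PDGFRA-positive cells of Oct4-LOF nEnd, a line in which 4-hydroxytamoxifen (4OHT) removes Oct4 (gene symbol Pou5f1) from both alleles, were grown without 4OHT (-4OHT) or with it (+4OHT), with 1 library of each. Each experiment used 1 line, the labels do not say whether replicate libraries came from separate cultures, and p-values measure only the spread between these libraries.

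Bulk libraries held 8019631 to 11642571 counts. The sort was checked on its own markers: mean CPM (read counts scaled to a common library size, here by TMM) of Pou5f1 were 981 in Oct4+, 229 in DP and 17.5 in Pdgfra+, and those of Pdgfra were 7.43, 590 and 729. The single-cell libraries held 107645984 UMIs over 6896 barcodes (-4OHT) and 95420040 UMIs over 7283 barcodes (+4OHT), of which 5267 and 6266 passed the filters. Pou5f1 was at 40.35 CPM over all -4OHT cells and 2.47 CPM over all +4OHT cells, though a 3′ tag may lie outside the deleted part and then checks nothing. These values also mix cell classes whose shares differed between the libraries, and levels within classes are given below. Of the barcodes, 21 occurred in both libraries, 17 of them among those kept.

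The members lie on 4 chromosomes (mouse build GRCm38.p6, RefSeq positions). Krt8 (chr15:101996711-102004342, minus strand) and Krt18 (chr15:102028216-102032026, plus strand) are neighbours whose annotated starts (GENCODE) lie 23698 bases apart and point away from each other, with no coding gene between them. Krt7 lies on the same chromosome at chr15:101412403-101427806 (plus strand). Cldn4 (chr5:134945123-134946934, minus strand) and Cldn3 (chr5:134986214-134987476, plus strand) form a second divergent pair, with starts 39280 bases apart and no coding gene between them, and each has all of its exonic sequence in 1 block. Krt19 lies at chr11:100140810-100145926 (minus strand) between Krt15 and Krt9, Cldn7 at chr11:69964779-69967886 (plus strand) and Cldn6 at chr17:23679348-23682446 (plus strand), where its neighbour is Cldn9.

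The sequences before the starts of these 2 divergent pairs are printed because the members of each pair moved together in the bulk libraries, Krt8 with Krt18 and, in the opposite direction, Cldn4 with Cldn3. Moving together was not particular to neighbours. Over the 9 libraries Cldn3 and Cldn4 correlated at r = 0.79, and Cldn6 and Cldn7, on different chromosomes, at 0.991. They are reference sequence (RefSeq, GRCm38.p6), written 5′ to 3′ on the strand of the gene, and cover the 250 bases before the RefSeq start without those bases that GENCODE places inside a transcript. For Krt8 this is chr15:102004483-102004592 (minus strand), for Krt18 chr15:102027966-102028179 (plus strand), for Cldn4 chr5:134946935-134947184 (minus strand) and for Cldn3 chr5:134985964-134986213 (plus strand). Capitals mark matches to the 4 motifs searched below.
Krt8: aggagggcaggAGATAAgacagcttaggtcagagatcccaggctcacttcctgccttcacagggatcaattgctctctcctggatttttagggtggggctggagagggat
Krt18: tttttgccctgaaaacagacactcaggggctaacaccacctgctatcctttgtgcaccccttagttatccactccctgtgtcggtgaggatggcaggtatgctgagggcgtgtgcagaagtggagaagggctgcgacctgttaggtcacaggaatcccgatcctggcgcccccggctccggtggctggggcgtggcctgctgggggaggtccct
Cldn4: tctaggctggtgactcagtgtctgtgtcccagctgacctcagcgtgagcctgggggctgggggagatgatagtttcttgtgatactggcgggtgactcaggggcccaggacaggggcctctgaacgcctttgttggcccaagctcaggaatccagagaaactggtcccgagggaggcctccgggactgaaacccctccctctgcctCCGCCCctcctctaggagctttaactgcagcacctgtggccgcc
Cldn3: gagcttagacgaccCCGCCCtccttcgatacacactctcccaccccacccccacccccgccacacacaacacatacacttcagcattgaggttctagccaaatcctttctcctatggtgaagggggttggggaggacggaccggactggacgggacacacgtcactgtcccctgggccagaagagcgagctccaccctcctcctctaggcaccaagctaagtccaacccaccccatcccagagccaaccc
The motifs were searched as plain letters on both strands of the 250 bases: the GATA motif AGATAA, the GC box GGGCGG, the TATA box TATAAA and the CCAAT box CCAAT. Krt8 held 1 AGATAA, a sequence bound by GATA factors, which 9.99% of the 32851 RefSeq promoters of this length also held. Cldn4 and Cldn3 each held 1 GC box, read here on the opposite strand as CCGCCC, and 32.7% of all promoters held it. Krt18 held none of the 4. TATAAA was in 12.4% and CCAAT in 33.8% of all promoters and in none of these 4 windows. G and C made up 58% of the window of Krt8, 60.4% of Krt18, 62% of Cldn4 and 60.8% of Cldn3, against a median of 52.4% over all promoters. A promoter entry was given for 7 of the 8 members, and Krt19 had none.

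Krt8, Krt18, Krt19, Cldn6 and Cldn7 were abundant in Pdgfra+ and DP libraries and low in Oct4+ libraries, while Cldn4 and Cldn3 had their highest mean in Oct4+ and Krt7 was near the detection limit in all 3 populations. In CPM per kilobase of exon, which allows genes to be compared, the order of mean levels in Pdgfra+ was Cldn6 (437 ± 43.1, SD, n = 3), Krt18 (381 ± 81.9), Krt8 (228 ± 45.6), Krt19 (224 ± 59.8), Cldn7 (97.9 ± 14.6), Cldn4 (5.45 ± 2.33), Cldn3 (0.657 ± 0.445) and Krt7 (0.149 ± 0.0912). Cldn6 and Krt18 lay within their SDs of each other, as did Krt8 and Krt19. In Oct4+ the order was led by Cldn4 (39.8 ± 3.64 CPM per kilobase), followed by Krt18 (19.4 ± 14.7), Cldn6 (13.5 ± 14.5) and Krt8 (12.4 ± 8.08), of which the last 3 lay within their SDs. Krt19 (4.48 ± 5.52), Cldn7 (4.39 ± 2.99) and Cldn3 (4.35 ± 3.22) were likewise not separated, and Krt7 was again lowest at 0.161 ± 0.138.

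**Figure D1:**
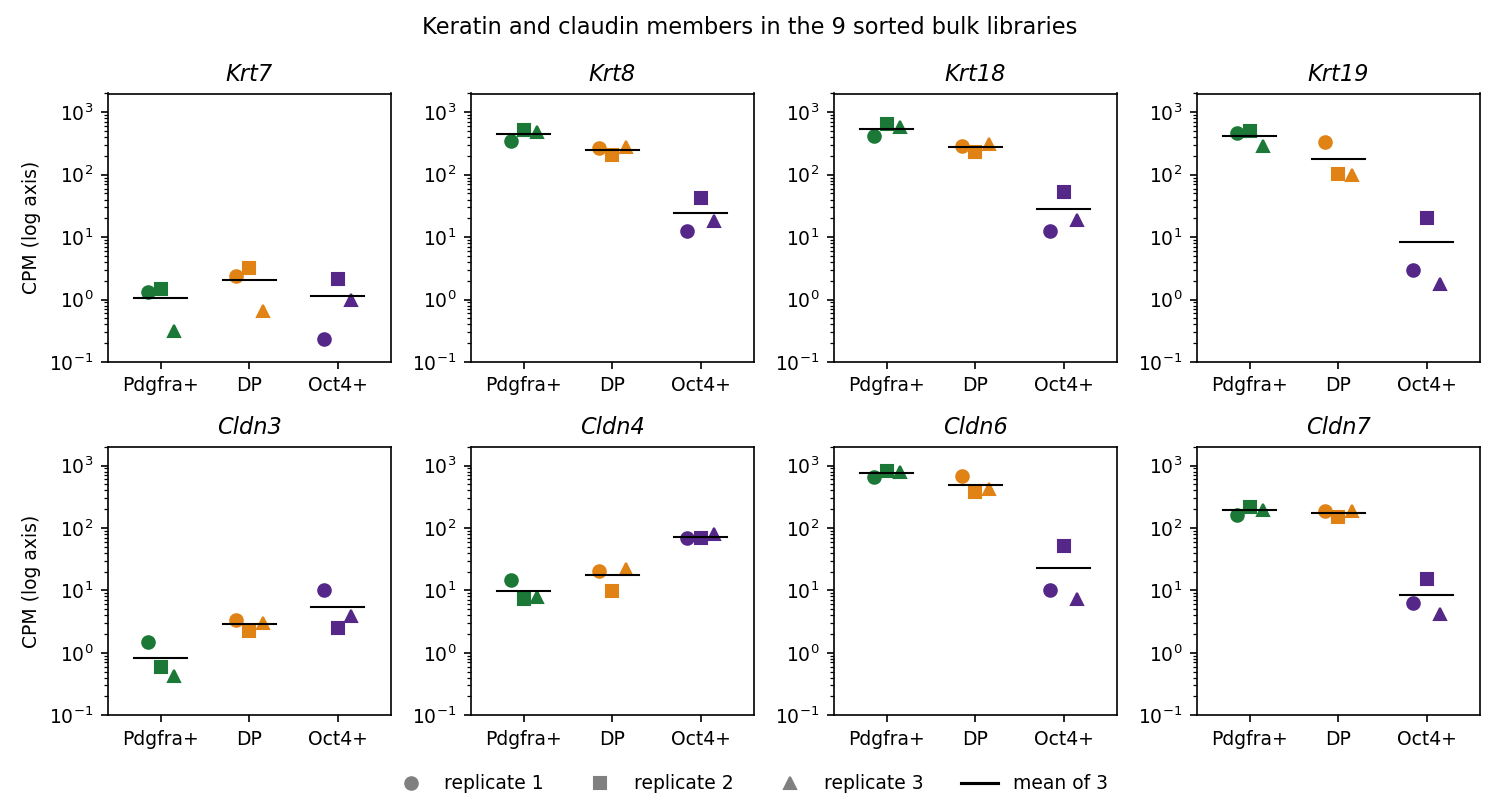
Level of each member in CPM (log axis) in the 9 sorted bulk libraries, with 1 panel per gene, a point for each replicate and a line at the mean of 3. Krt8, Krt18, Krt19, Cldn6 and Cldn7 sit lowest in all 3 Oct4+ libraries, Cldn4 sits highest there, and Krt7 stays at or under 3.19 CPM throughout.

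Krt8, the type II keratin of simple epithelia, stood at 345.6, 513.9 and 481.7 CPM in Pdgfra+ replicates 1 to 3, at 271.9, 208.9 and 275 CPM in DP and at 12.3, 42.2 and 18.2 CPM in Oct4+. The 3 populations did not overlap, and Oct4+ replicate 2 was the highest of its group. Krt18, its type I partner, stood at 415.6, 642.1 and 584 CPM in Pdgfra+, at 290.7, 232.2 and 311.2 CPM in DP and at 12.6, 52.0 and 19.1 CPM in Oct4+, with the same order of populations and the same high Oct4+ library. The counts of Krt8 over those of Krt18 gave ratios between 0.80 and 0.981 in all 9 libraries. Across the 9 libraries log2 CPM of the pair correlated at r = 0.999, a description over points that share 3 populations. Krt8 shares sequence with a processed pseudogene listed as Krt8-ps, which had at most 20 counts in a library, so that some Krt8 reads may have been assigned there.

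Krt19, a type I keratin without a tail domain, stood at 464.6, 492.7 and 288 CPM in Pdgfra+, at 336.7, 102.8 and 99.5 CPM in DP and at 3.02, 20.1 and 1.77 CPM in Oct4+. DP replicate 1 lay within the Pdgfra+ range, so that DP and Pdgfra+ overlapped, while Oct4+ lay apart from both. Krt7, a type II keratin of ducts and of trophoblast, had 3 to 27 counts in each library and stood at 1.34, 1.49 and 0.313 CPM in Pdgfra+, 2.37, 3.19 and 0.654 CPM in DP and 0.233, 2.17 and 0.998 CPM in Oct4+. All 3 populations overlapped for Krt7.

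Cldn6, a claudin of embryonic epithelia, stood at 667, 806.7 and 780 CPM in Pdgfra+, at 675.6, 372.4 and 425.6 CPM in DP and at 10.2, 52.1 and 7.32 CPM in Oct4+. Cldn7 stood at 159.8, 215.8 and 196.4 CPM in Pdgfra+, at 186.5, 149.2 and 183.9 CPM in DP and at 6.28, 15.2 and 4.21 CPM in Oct4+. For both genes DP overlapped Pdgfra+ and Oct4+ lay below. Cldn4, a claudin of tight epithelia, took the opposite course at 14.8, 7.17 and 7.72 CPM in Pdgfra+, 20.6, 9.80 and 22 CPM in DP and 68.7, 68.2 and 79.9 CPM in Oct4+, where the 3 libraries lay close together and above all others. Cldn3 stood at 1.47, 0.598 and 0.418 CPM in Pdgfra+, 3.37, 2.24 and 3.01 CPM in DP and 10.1, 2.47 and 3.88 CPM in Oct4+. Cldn3 in DP lay above Pdgfra+ without overlap, and Oct4+ spread from within the DP range to above it. Libraries of Oct4+ and Pdgfra+ did not overlap for 7 of the 8 members, as for 69.3% of all 14185 genes tested, those of DP and Oct4+ for 6 (62.6% of all genes) and those of DP and Pdgfra+ for 3, which were Krt8, Krt18 and Cldn3 (34.2% of all genes).

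Oct4+ against Pdgfra+ compared the 2 ends of the sort, and 7 of the 8 members were past the threshold, which asked for an adjusted p from edgeR under 0.05 together with a log2 fold change beyond 1.5 in either direction. Of all genes tested 32% were past it, 17.3% higher and 14.7% lower in Oct4+. Of the members 5 were lower in Oct4+: Krt19 (log2 fold change -5.65 ± 0.88, SE, adjusted p = 3.37e-04), Cldn6 (-5.02 ± 0.68, 1.43e-04), Cldn7 (-4.48 ± 0.40, 1.18e-05), Krt18 (-4.30 ± 0.48, 4.11e-05) and Krt8 (-4.21 ± 0.42, 2.16e-05). The other 2 were higher in Oct4+, Cldn4 at 2.88 ± 0.35 (adjusted p = 7.34e-05) and Cldn3 at 2.75 ± 0.63 (adjusted p = 0.00355). Krt7 differed by 0.09 ± 0.84 (adjusted p = 0.935), which its counts leave undecided. The median log2 fold change of the 8 was -4.25, beside 0.01 over all genes tested.

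The size of the keratin, Cldn6 and Cldn7 changes rested in part on Oct4+ replicate 2. Without that library the log2 fold changes were -4.88 for Krt8, -5.12 for Krt18, -7.40 for Krt19, -6.41 for Cldn6 and -5.17 for Cldn7, all still past the threshold. In this library the 5 genes stood at 9.44% (Krt8), 9.49% (Krt18), 4.84% (Krt19), 6.93% (Cldn6) and 7.96% (Cldn7) of their Pdgfra+ means, against 0.427% to 4.07% in the other 2 Oct4+ libraries. The summed level of 11 of 11 endoderm markers in Oct4+ replicates 1 to 3 was 0.59%, 1.26% and 0.732% of that in Pdgfra+, and Col4a1 and Col4a2 had the highest Pdgfra+ means in that sum. Of the 11 markers all but Gata6 (2.74%, 2.38% and 3.05%) were likewise highest in replicate 2, where they ranged from 0.74% (Col4a2 and Lama1) to 3.92% (Foxa2) and 5.72% (Dab2). Krt8, Krt18, Cldn6 and Cldn7 stood above this range in replicate 2 and Krt19 within it, and the part of endoderm cells in these values was not tested. The change of Cldn3 was 1.93 (adjusted p = 0.0143) without Oct4+ replicate 1, the library with its highest level, and 3.42 without Pdgfra+ replicate 1. Oct4+ replicate 1 also had the highest sum of 10 feeder fibroblast markers (162.4 CPM, against 22.4 to 27.9 CPM in the other 2 Oct4+ libraries, 8.37 to 10.7 in DP and 4.68 to 18.1 in Pdgfra+).

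DP cells carry both sort markers, and DP against Oct4+ compared cells that share the reporter. Here 6 of the 8 members were past the threshold, 5 higher and 1 lower in DP, and 27.7% of all genes were past it (13.1% higher, 14.6% lower). Cldn7 was higher in DP by a log2 fold change of 4.34 ± 0.40 (adjusted p = 1.93e-05), Krt8 by 3.38 ± 0.40 (8.69e-05), Krt18 by 3.32 ± 0.46 (2.11e-04), Cldn6 by 4.41 ± 0.66 (3.55e-04) and Krt19 by 4.44 ± 0.84 (0.00138). Cldn4 was lower in DP, at -2.05 ± 0.34 (adjusted p = 6.01e-04). Cldn3 (-0.94 ± 0.57, adjusted p = 0.184) and Krt7 (0.90 ± 0.80, adjusted p = 0.365) were not past it. Without Oct4+ replicate 2 the values rose to 4.06 (Krt8), 4.15 (Krt18), 6.19 (Krt19), 5.80 (Cldn6), 5.03 (Cldn7) and 1.81 (Krt7, adjusted p = 0.122), and without DP replicate 1 that of Krt19 was 3.65. Without Oct4+ replicate 1 that of Cldn3 was -0.13.

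DP against Pdgfra+ asked whether these epithelial genes differed between endoderm cells with and without the reporter, and 0 of the 8 members were past the threshold in edgeR, beside 3.89% of all genes. DESeq2 also gave 0. In edgeR the unadjusted p was 0.0465 for Krt8, 0.041 for Krt18, 0.0184 for Cldn3 and 0.0368 for Cldn4. The share of all genes with an unadjusted p this low was not computed. Log2 fold changes of DP over Pdgfra+ were -0.83 ± 0.36 for Krt8 (adjusted p = 0.19), -0.98 ± 0.42 for Krt18 (0.178), -1.21 ± 0.71 for Krt19 (0.317), -0.61 ± 0.57 for Cldn6 (0.532) and -0.14 ± 0.34 for Cldn7 (0.826). They were 1.81 ± 0.64 for Cldn3 (0.118), 0.82 ± 0.34 for Cldn4 (0.169) and 0.98 ± 0.82 for Krt7 (0.482). Replicate numbers paired these 2 populations, and with the number as a block in a fit of the 6 libraries Cldn3 was past the threshold (1.87, adjusted p = 0.0326), 1 of 8 members beside 5.69% of all genes. In that fit the adjusted p was 0.0303 for Krt8 (-0.80), 0.0231 for Krt18 (-0.95) and 0.0316 for Krt19 (-1.40), whose fold changes stayed under the minimum, and 0.0683 for Cldn4. Leaving out 1 library moved 2 of the unblocked values by over 1.5 times, Cldn3 to 2.47 (adjusted p = 0.102) without Pdgfra+ replicate 1 and Krt19 to -2.04 (0.122) without DP replicate 1.

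**Figure D2:**
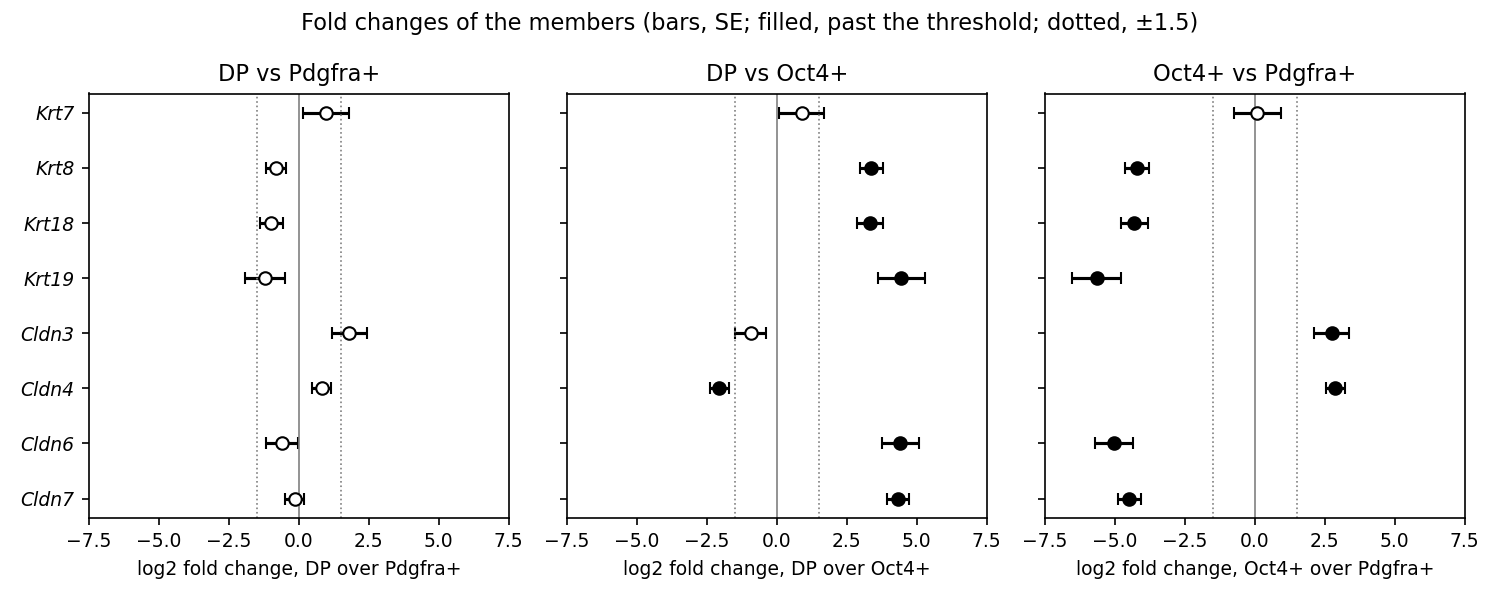
Log2 fold change of each member in the 3 comparisons of the sorted populations, with the SE as a bar, filled points past the threshold and dotted lines at ±1.5. No member is filled in DP over Pdgfra+, 6 are filled in DP over Oct4+ and 7 in Oct4+ over Pdgfra+, and Cldn3 and Cldn4 lie on the other side of 0 from the other members that were past the threshold.

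In a bulk sample fewer cells of a type and less RNA per cell cannot be told apart. The summed endoderm markers were at 60910 to 79660 CPM in Pdgfra+, 39580 to 64670 CPM in DP and 433 to 923 CPM in Oct4+, and 10 of 10 epiblast markers summed to 135 to 231, 598 to 932 and 3136 to 4357 CPM. The level of 11 of 11 trophectoderm markers, whose lineage also makes these keratins and claudins, summed to 20.5 to 30.3 CPM in Pdgfra+, 48.9 to 50.4 CPM in DP and 45.4 to 59.9 CPM in Oct4+, but its genes did not move together. Cdx2, a defining trophectoderm factor, averaged 6, 5.24 and 1.44 CPM and Tfap2c 0.254, 1.56 and 17.6 CPM, with Gata3, Tfap2a and Ascl2 also highest in Oct4+, and Elf5 was at 0 in Oct4+. The sum of 9 of 9 markers of two-cell-like cells was 0.731 to 3.99 CPM in Pdgfra+, 6.86 to 20.4 CPM in DP and 372.3 to 1411 CPM in Oct4+, and that of 7 of 7 visceral endoderm markers was 1209 to 1791, 3372 to 5555 and 349.5 to 410.9 CPM. The visceral endoderm sum was mostly Cubn, Apoe and Amn, and in Oct4+ mostly Apoe (mean 332.4 CPM). Mean levels in DP were below those in Pdgfra+ for Ttr (28.1 against 35.3 CPM), Afp (3.30 against 3.92) and Rbp4 (6.44 against 15.1). Of the squamous keratinocyte markers, Krt5 and Trp63 were at 0 in all Pdgfra+ and DP libraries. The part of these cell types in the members' levels was not tested.

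The mix of claudins differed between the populations. Of the counts of the 4 claudins, Cldn4 made up 72.1%, 49.5% and 83.8% in Oct4+ replicates 1 to 3, 2.32%, 1.84% and 3.46% in DP and 1.75%, 0.696% and 0.784% in Pdgfra+. Cldn6 made up 79.1%, 78.3% and 79.2% in Pdgfra+, 76.2%, 69.8% and 67.1% in DP and 10.7%, 37.7% and 7.67% in Oct4+. The Oct4+ libraries were thus mostly Cldn4 by counts except replicate 2, in which it was 49.5%, and the Pdgfra+ and DP libraries were mostly Cldn6. The 4 claudins together summed to 95.3 to 137.9 CPM in Oct4+, 533.6 to 886 CPM in DP and 843 to 1030 CPM in Pdgfra+, and the 4 keratins to 28.1 to 116.4, 547.1 to 901.7 and 1227 to 1650 CPM. These are shares of reads, and longer transcripts take more of them.

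**Figure D3:**
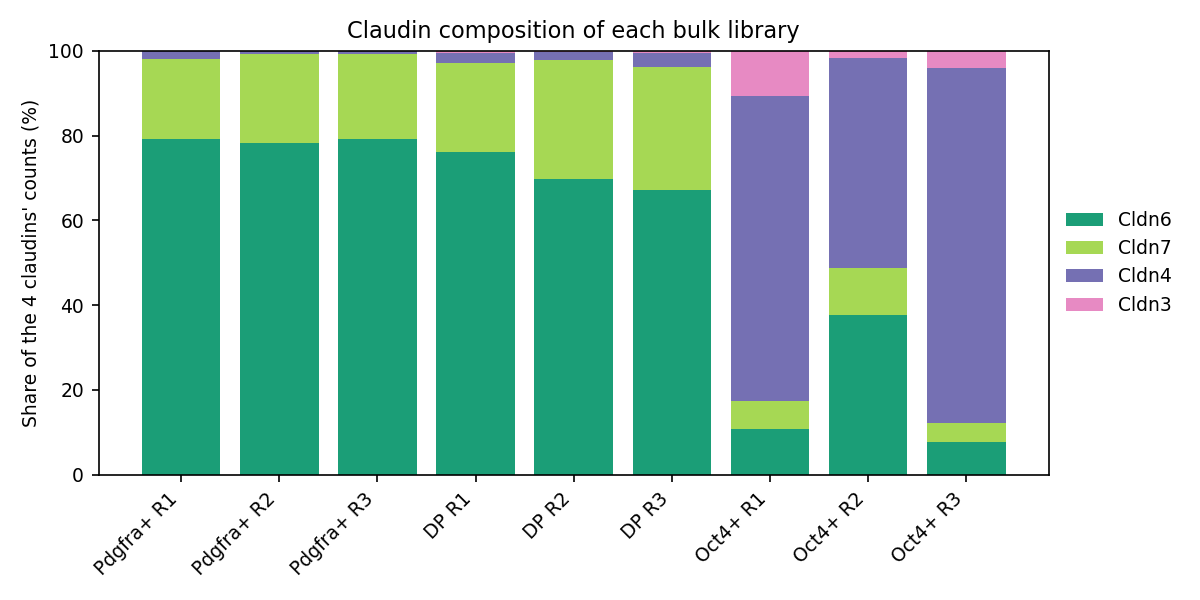
Share of each claudin in the summed counts of the 4 claudins (percent, bars adding to 100) for each of the 9 bulk libraries. Cldn6 and Cldn7 fill most of each Pdgfra+ and DP bar, and Cldn4 takes 49.5% to 83.8% of the Oct4+ bars.

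The genes outside the 8 whose log2 CPM over the 9 libraries was most like that of a member were, with Pearson's r, Cers2 (0.9954) and Lysmd4 (0.9949) for Krt18, Lysmd4 (0.9946) and Ilk (0.9937) for Krt8, Prss12 (0.9946) and Gm10575 (0.9923) for Krt19, Gm6314 (0.9959) and Slc39a8 (0.9957) for Cldn6, and Rnpepl1 (0.9981) and B4galt7 (0.9969) for Cldn7. For the members with other patterns they were Sec14l4 (0.9876) and Acy3 (0.9866) for Cldn4, Srxn1 (0.9535) and Tmco4 (0.9491) for Cldn3, and Efnb2 (0.9346) and Zfp593 (0.8934) for Krt7. Lysmd4 was named for both partners of the Krt8 and Krt18 pair. The 9 points share 3 populations, so that any gene that separates these will be alike. Among the members Cldn6 and Cldn7 correlated at 0.991, Cldn3 and Cldn4 at 0.79 and Krt8 and Cldn4 at -0.926.

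Other genes of the keratin and claudin families were mostly too low to test. Of 50 other keratins 4 passed the filter on low counts, and of 22 other claudins 3 did. In Oct4+ against Pdgfra+ 3 of the 4 keratins were higher and none lower, beside 17.3% and 14.7% of all genes. In DP against Oct4+ 2 were lower in DP, beside 14.6% of all genes. Krt17, Krt42 and Cldn5 passed the filter only through their Oct4+ libraries, where they were highest. Their direction was thus largely set by the filter, and these counts say little about the families. Krt42, a type I keratin, had 240, 82 and 98 counts in Oct4+, 4, 30 and 9 in DP and 0, 1 and 1 in Pdgfra+. Summed counts over library totals gave a ratio of 220.4 of Oct4+ over Pdgfra+. Its 95% counting interval, 60.6 to 1825.6, leaves out the spread between replicates, and edgeR gave 148-fold (adjusted p = 8.83e-05). Krt42 was the 1 keratin past the threshold in DP against Pdgfra+, at 25.4 by summed counts (interval 6.6 to 216.0) and 20.8-fold in edgeR (adjusted p = 0.0332). Krt17, a type I keratin of stressed epithelia, had 133 counts in Oct4+, 14 in DP and 0 in Pdgfra+, at least 46.5-fold higher in Oct4+ than in Pdgfra+ when 3 counts are allowed over the group. Krt10, a suprabasal keratin, was higher in Oct4+ by 1.55 ± 0.50 on the log2 scale (adjusted p = 0.0197). Cldn5, the endothelial claudin, had 128 counts in Oct4+ and 2 in Pdgfra+. Its ratio was 67.2 by summed counts (interval 18.2 to 560.5) and 47.4 in edgeR (adjusted p = 4.78e-04). Cldn12 averaged 45.2 to 55.3 CPM in all 3 populations and was past the threshold in no comparison.

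Of 22 tight junction genes 3 were higher and 10 lower in Oct4+ than in Pdgfra+, beside 17.3% and 14.7% of all genes (median log2 fold change -1.24). In DP against Oct4+ 11 were higher and 2 lower in DP, beside 13.1% and 14.6% of all genes (median 1.54). Marveld3 was 1 of those 3 and 1 of those 2. It had 23, 32 and 15 counts in Oct4+, 9, 6 and 2 in DP and 9, 3 and 7 in Pdgfra+. It passed the filter on low counts only through its Oct4+ libraries, which largely set its direction. Patj, a polarity scaffold, fell by 3.77 in Oct4+ against Pdgfra+ (adjusted p = 1.02e-06) and Ocln (occludin) by 3.17 (1.30e-04). Jam2, a junctional adhesion molecule, went the other way, at 442.5, 197.9 and 204.8 CPM in Oct4+, 11.5, 15.9 and 13.1 CPM in DP and 1.59, 2.69 and 2.30 CPM in Pdgfra+, so that no populations overlapped. It was higher by 6.98 ± 0.40 in Oct4+ than in Pdgfra+ (adjusted p = 1.54e-06). In DP against Pdgfra+ it was 1 of 2 tight junction genes past the threshold (2.6, 0.0119), with Jam3 (2.78, 0.0173), beside 3.89% of all genes. Amot, which binds polarity proteins at junctions, was higher in DP than in Oct4+ by 4.09 ± 0.54 (1.59e-04).

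Of 12 genes of desmosomes and keratin linkers 2 were higher and 3 lower in Oct4+ than in Pdgfra+, beside 17.3% and 14.7% of all genes. In DP against Oct4+ 4 were higher and 1 lower in DP, beside 13.1% and 14.6% of all genes. Whether so few genes depart from those shares was not tested. Dsp (desmoplakin), which anchors keratin filaments at desmosomes, fell by 3.32 in Oct4+ against Pdgfra+ (adjusted p = 8.61e-06), and the linker Plec (plectin) fell by 2.57 (3.36e-05). Evpl (envoplakin), another plakin, rose from a mean of 0.898 CPM in Pdgfra+ to 7.09 CPM in DP (2.99 on the log2 scale, adjusted p = 0.0183) and 11.5 CPM in Oct4+ (3.69, 2.25e-04). Pkp3 (plakophilin) was higher in DP than in Oct4+ by 2.05 (7.10e-05), and Perp, a desmosome-associated membrane protein gene, was lower, at -1.96 (0.00327).

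Of 16 epithelial adhesion genes and regulators 3 were higher and 8 lower in Oct4+ than in Pdgfra+, beside 17.3% and 14.7% of all genes. In DP against Oct4+ 9 were higher and 2 lower in DP, beside 13.1% and 14.6% of all genes. The membrane protease gene Prss8 fell by 4.00 in Oct4+ against Pdgfra+ (adjusted p = 2.81e-05) and Ap1m2, an epithelial adaptor of basolateral sorting, by 3.49 (7.64e-05). Grhl3, a grainyhead factor of epithelia, was higher in Oct4+, at 19.4, 24.6 and 30.2 CPM against 0.939 to 1.79 CPM in Pdgfra+ (4.17 ± 0.37, 1.15e-05). The only gene of this list past the threshold in DP against Pdgfra+ was Grhl1 (1.81 ± 0.43, 0.0381). Of 9 other intermediate filament genes 3 were higher and 1 lower in Oct4+ than in Pdgfra+, beside 17.3% and 14.7% of all genes. Whether so few genes depart from these shares was not tested. Des (desmin) was higher by 4.63 (2.08e-05), from a mean of 0.432 CPM, and Gfap by 3.54 (0.00186), with means at or under 1.41 CPM. Gfap, too, passed the filter on low counts only through its Oct4+ libraries. Synm, also among the 3, would not have passed it without them. Synm had 47, 115 and 41 counts in Oct4+, 12, 8 and 7 in DP and 7, 13 and 7 in Pdgfra+. The direction of both genes was thus largely set by the filter. Lmna (lamin A), which lines the nucleus, fell by 2.83 (3.15e-05). Vim (vimentin) stood at 117.9 to 261 CPM in Oct4+, 24.7 to 55.9 CPM in DP and 85.9 to 111 CPM in Pdgfra+ and was lower in DP than in Oct4+, at -2.07 ± 0.34 (6.39e-04).

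**Figure D4:**
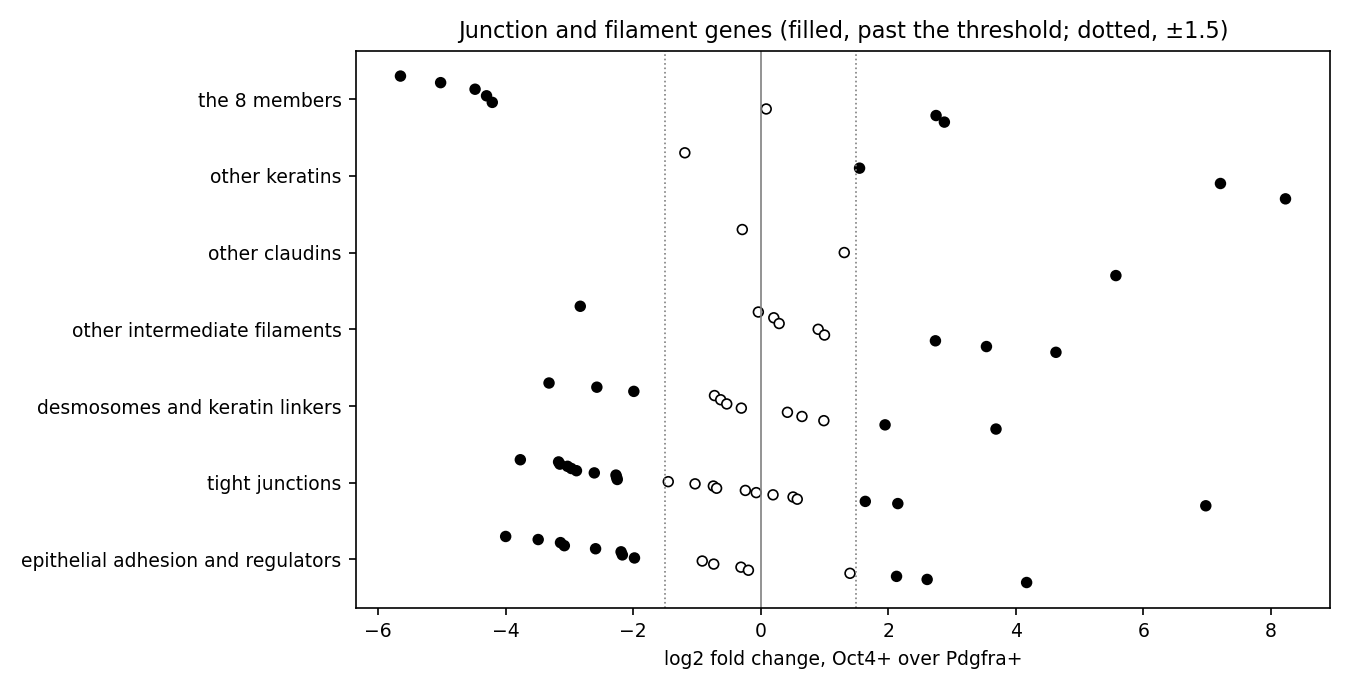
Log2 fold change of Oct4+ over Pdgfra+ for the 8 members and for each tested gene of 6 lists, a point for each gene, filled where past the threshold, with dotted lines at ±1.5. Of the members 5 lie below -4 and 2 lie above 2, while of the tight junction genes 10 are filled on the lower and 3 on the higher side.

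Single cells were grouped without the members and the other keratins, claudins and listed genes, and clusters were named from marker genes. In -4OHT 1417 cells were endoderm-like and 3712 epiblast-like, and in +4OHT 6032 were endoderm-like and 199 trophectoderm-like, with 22 trophectoderm-like cells in -4OHT. The endoderm-like cells fell into 3 clusters with different leading genes: Gkn2 and Gkn1 (180 cells in -4OHT, 3865 in +4OHT), Car4 and Pitx1 (444 and 2163) and Amn and Cubn (793 and 4), of which the last also has 2 visceral endoderm markers among its top 10 genes. With 1 library per condition there is no test of a difference between conditions, cells are not replicates, and the intervals below are 95% exact ones for counting error only. Levels are CPM of UMIs summed over the cells of a class.

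Within the -4OHT library Krt8, Krt18, Krt19, Cldn6 and Cldn7 were higher in endoderm-like than in epiblast-like cells. The share of all genes that were higher there was not computed. Krt8 was at 281.5 CPM (274.8 to 288.2) in endoderm-like and 8.35 CPM in epiblast-like cells, a ratio of 33.7 (31.1 to 36.7), and Krt18 at 310.8 and 9 CPM, a ratio of 34.5 (31.9 to 37.4). Krt19 was at 138.5 and 1.93 CPM, a ratio of 71.9 (60.8 to 85.5). Cldn6 was at 110.6 and 3.38 CPM (32.7, 28.7 to 37.3) and Cldn7 at 125.9 and 6.49 CPM (19.4, 17.6 to 21.4). The other 2 detected claudins had the reverse order, Cldn4 at 3.46 CPM in endoderm-like and 15.05 CPM in epiblast-like cells (ratio 0.23, 0.182 to 0.287) and Cldn3 at 0.70 and 6.51 CPM (0.107, 0.062 to 0.174). Krt7 had 8 and 17 UMIs and a ratio of 1.45 (0.541 to 3.54), which was not detectable as a difference at this depth.

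The low levels in the opposite class were set beside those of genes that define the classes. In epiblast-like cells Krt8, Krt18, Krt19, Cldn6 and Cldn7 were at 2.97%, 2.90%, 1.39%, 3.06% and 5.15% of their endoderm-like level, and the 11 endoderm markers ranged from 0.773% (Col4a1) to 2.84% (Gata6). Krt19 lay within this range. The counting intervals of the ratios of Krt8, Krt18 and Cldn6 overlapped that of Gata6 (35.2, 32 to 38.9), and that of Cldn7 (17.6 to 21.4) lay below it. In endoderm-like cells Cldn3 was at 10.7% of its epiblast-like level, and Cldn4 at 23%, both within the range of the 10 epiblast markers, which ran from 9.41% (Fgf4) over 10.9% (Nanog and Sox2) and 22.4% (Utf1) to 61.1% (Tcl1). Droplets also capture free RNA, and its part in these levels was not tested. Cldn7 differed within the epiblast-like cells, at 10.4 CPM in the cluster led by Calcoco2 and 4.19 CPM in the cluster led by Cdx1 (ratio 2.49, 2.07 to 3.00). So did Krt19, at 2.69 and 1.48 CPM (ratio 1.82, 1.29 to 2.56), while the intervals of the other members included 1. The same ratio over the 11 endoderm markers ranged from 0.853 (Dab2) to 2.19 (Sparc) and 2.47 (Gata6), and the other 8 lay between 1.13 and 1.62.

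Shares of cells with a UMI were read after thinning each cell to 5000 UMIs. In -4OHT endoderm-like cells (1397 deep enough) Krt8 was detected in 65.0%, Krt18 in 66.1%, Krt19 in 34.8%, Cldn6 in 37.4% and Cldn7 in 39.1%, and in epiblast-like cells (3700) these shares were 3.49%, 3.92%, 1%, 1.76% and 3.00%. Before thinning, Krt8 was detected in 85.7% of endoderm-like cells. Both Krt8 and Krt18 were detected in 51.1% of -4OHT endoderm-like cells (48.5 to 53.8). Cldn4 was detected in 6.97% of epiblast-like and 1% of endoderm-like cells and Cldn3 in 3.14% and 0.215%.

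The endoderm-like clusters differed from each other. In -4OHT the Amn and Cubn cluster had 172.7 CPM of Krt8, 194.8 of Krt18, 41.9 of Krt19, 79.0 of Cldn6 and 91.3 of Cldn7, beside 465.9, 502.6, 268.6, 175.7 and 180.2 CPM in the Car4 and Pitx1 cluster and 631.2, 699, 549.9, 177.9 and 250.2 CPM in the Gkn2 and Gkn1 cluster. The Amn and Cubn cluster was thus the lowest of the 3 for all 5 of these members, with Krt19 at 0.156 (0.142 to 0.171) of the Car4 and Pitx1 cluster and Krt8 at 0.371 (0.352 to 0.391). The scarce members did not all share this order. In the same order of clusters Cldn4 was at 3.90, 0.507 and 8.59 CPM, Cldn3 at 1.04, 0 and 0 CPM and Krt7 at 0, 0.338 and 3.03 CPM. The endoderm genes Gata6 and Pdgfra were at 0.85 and 0.734 of the Car4 and Pitx1 cluster and Sox17 and Col4a1 at 0.38 and 0.418, while Nanog (26.5 against 5.91 CPM) and Sox2 (51.8 against 6.93 CPM) were higher. Of the cells of the Amn and Cubn cluster 17.4% were among the 6% with the highest doublet scores, and the part of doublets was not tested.

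**Figure D5:**
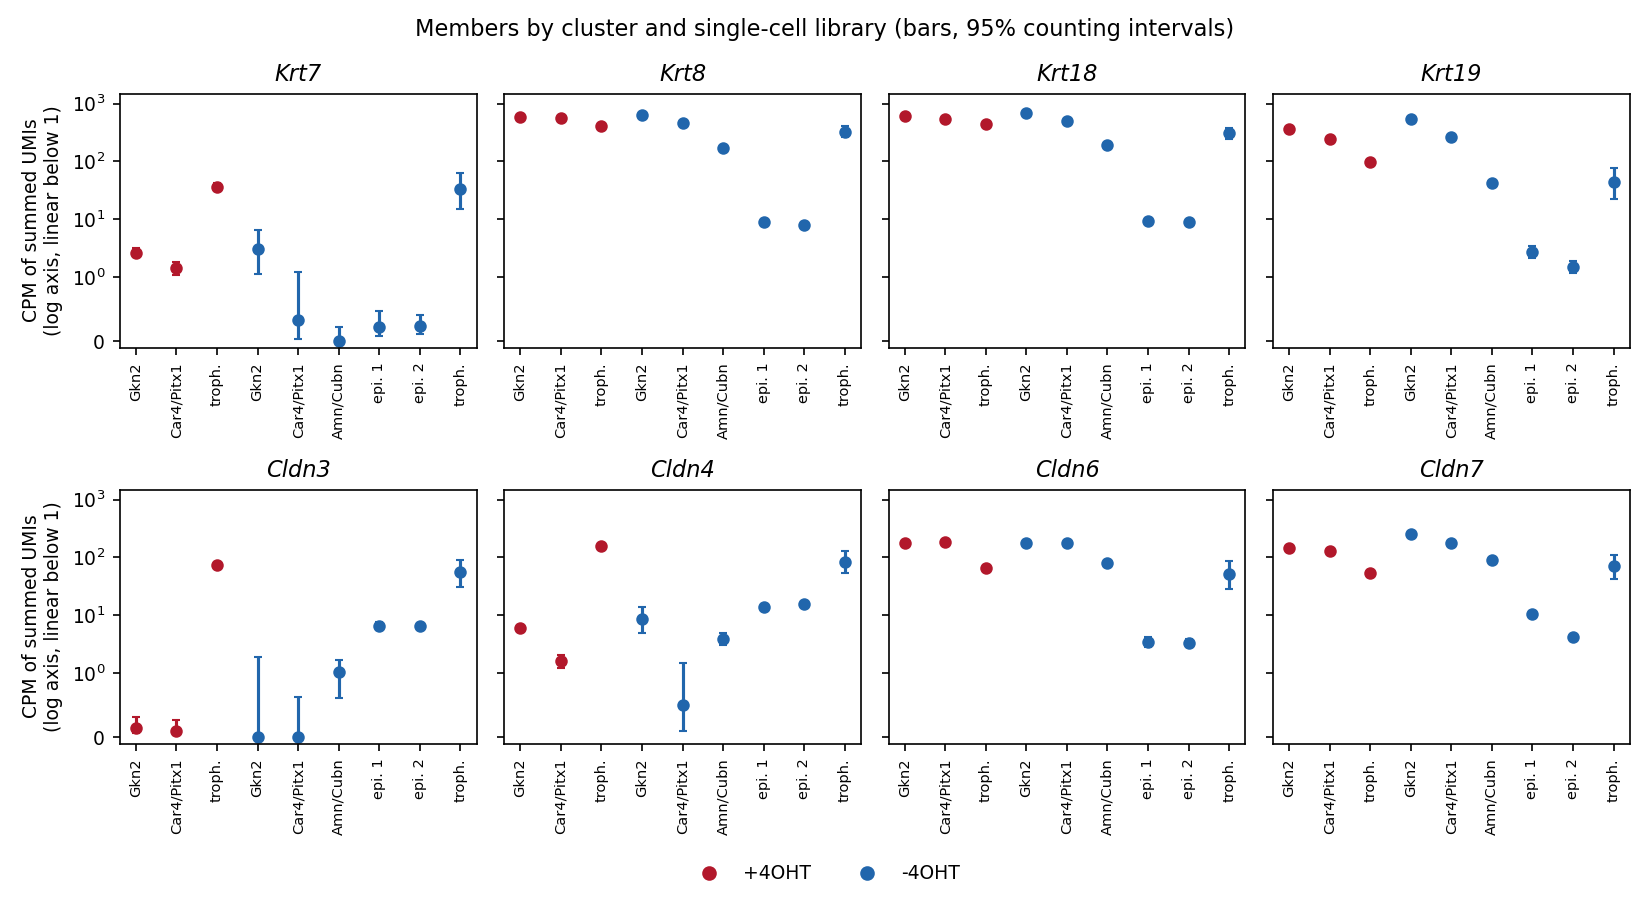
CPM of summed UMIs (log axis, linear below 1) of each member by cluster and single-cell library, with 95% exact Poisson intervals as bars, +4OHT in red and -4OHT in blue, clusters named by their leading genes (troph., trophectoderm-like; epi., epiblast-like). Krt8, Krt18, Krt19, Cldn6 and Cldn7 are lowest in the 2 epiblast-like clusters among those plotted, and Krt7, Cldn3 and Cldn4 are highest in the trophectoderm-like cluster. The small feeder fibroblast-like and two-cell-like clusters are not plotted.

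The +4OHT and -4OHT libraries were compared for the members in endoderm-like cells, in which Pou5f1 was at 1.75 CPM in +4OHT and 16.58 CPM in -4OHT. Over all endoderm-like cells the +4OHT level over the -4OHT level was 2.24 for Krt19 (309.8 and 138.5 CPM, 2.16 to 2.32), 2.03 for Krt8 (571.8 and 281.5 CPM, 1.98 to 2.08), 1.88 for Krt18 (584.1 and 310.8 CPM), 1.64 for Cldn6 (181.3 and 110.6 CPM) and 1.08 for Cldn7 (136.6 and 125.9 CPM, 1.04 to 1.13). The ratio of Cldn7 turned to 0.985 without the 6% of barcodes with the highest doublet scores and to 0.883 after thinning. By the rule of a 2-fold ratio and at least 20 CPM in 1 library, 2 of these 5 members were past it, beside 12.1% of 6805 genes (8.49% higher, 3.57% lower in +4OHT). Both calls were lost after thinning, which weights cells equally, and after leaving out the 6% of barcodes with the highest doublet scores. Krt7, Cldn3 and Cldn4 were under 20 CPM and not counted. Their ratios were 6.3 (3.13 to 14.8), 0.184 (0.078 to 0.417) and 1.17 (0.921 to 1.51). The 2 libraries held different clusters, the Amn and Cubn cluster with its low keratins being almost absent from +4OHT, so values within clusters are given beside these.

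Within the Gkn2 and Gkn1 cluster the ratio of +4OHT over -4OHT was 0.921 for Krt8 (581.6 and 631.2 CPM, 0.87 to 0.976), 0.889 for Krt18, 0.67 for Krt19 (368.3 and 549.9 CPM, 0.63 to 0.713), 1.01 for Cldn6 and 0.577 for Cldn7 (144.3 and 250.2 CPM, 0.526 to 0.633). Within the Car4 and Pitx1 cluster it was 1.20 for Krt8 (560.6 and 465.9 CPM, 1.16 to 1.25), 1.07 for Krt18, 0.896 for Krt19, 1.04 for Cldn6 (0.977 to 1.11) and 0.707 for Cldn7 (127.4 and 180.2 CPM, 0.661 to 0.756). No member was past 2-fold in either cluster, beside 1.34% of 6665 genes and 1.94% of 6608 genes. The higher class levels of Krt8 and Krt19 in +4OHT were therefore not seen at that size inside either cluster that both libraries shared. Cldn7 and Krt19 were lower in +4OHT in both clusters. In -4OHT Pou5f1 was already at 1.52 CPM (3 UMIs) in the Gkn2 and Gkn1 cluster and 3.55 CPM (21 UMIs) in the Car4 and Pitx1 cluster. In +4OHT it was at 2.35 and 1.03 CPM. As these -4OHT cells held little Pou5f1, the ratios within clusters cannot show what the loss of Oct4 does, which was not tested.

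In -4OHT endoderm-like cells thinned to equal depth, the 92 cells with a Pou5f1 UMI were compared with the 1305 without. Cells with the UMI had 202.2 CPM of Krt8 against 331.8 CPM, a ratio of 0.609 (0.49 to 0.75), and ratios of 0.567 for Krt18 (0.459 to 0.694), 0.372 for Krt19 (0.253 to 0.528), 0.443 for Cldn6 (0.285 to 0.658) and 0.649 for Cldn7 (0.469 to 0.879). Of the 92 cells 87 lay in the Amn and Cubn cluster, and within that cluster the ratios were 0.973 for Krt8 (0.763 to 1.23), 0.905 for Krt18 (0.716 to 1.13), 0.646 for Krt19 (0.346 to 1.11), 0.523 for Cldn6 (0.305 to 0.842) and 0.898 for Cldn7 (0.628 to 1.25). The interval lay below 1 for all 5 members over the class and for Cldn6 alone within the cluster, and the share of all genes below 1 was not computed. Nanog moved with the split, at 4.66 (2.78 to 7.56) over the class and 3.08 (1.79 to 5.12) within the cluster, as did Amn over the class at 1.83 (1.58 to 2.12) but not within the cluster at 1.05 (0.901 to 1.22), and their part in the members' ratios was not tested. Pou5f1 was detected before thinning in 20.3% of -4OHT endoderm-like cells, in 2.17% of +4OHT endoderm-like cells and in 15% of the 20 -4OHT feeder fibroblast-like cells (median depths 15280, 12560 and 26790 UMIs), so that part of these UMIs can be background, and free RNA was not tested.

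The trophectoderm-like cluster, whose top 10 genes by fold include Ascl2, Cdx2, Cldn4 and Cldn3, held the highest Krt7, Cldn3 and Cldn4 of the named classes. In the 199 +4OHT cells Krt7 was at 36.3 CPM (30.5 to 42.8) against 2.07 CPM in endoderm-like cells, Cldn4 at 156.3 CPM (144 to 169.2) against 4.05 CPM and Cldn3 at 73.3 CPM (65.0 to 82.4) against 0.129 CPM. Krt8 (404.8 CPM) and Krt18 (451.9 CPM) were at 0.708 and 0.774 of the endoderm-like level there, and Krt19 (97.7 CPM), Cldn6 (65.0 CPM) and Cldn7 (52.9 CPM) at 0.315, 0.359 and 0.387. The 11 endoderm markers were at 25.3% (Dab2) to 35.9% (Sox17) of the endoderm-like level in the same cells, close to the last 3, and 14.9% of the cluster was among the top doublet scores. All epiblast markers but Dppa5a (ratio 0.674) were above the endoderm-like level there, with Sox2 at 84.5 against 0.305 CPM and Nanog at 27.5 against 0.0937 CPM. Before thinning, Pou5f1 was detected in 27.6% and Cdx2 in 39.2% of the 199 cells. The part of cells of other types in this cluster was not tested. After thinning, Cldn4 was detected in 47.0%, Cldn3 in 23.2% and Krt7 in 10.6% of 198 of these cells, beside 1.19%, 0.0504% and 0.705% of endoderm-like cells. The 22 trophectoderm-like cells of -4OHT had 33.2 CPM of Krt7 (15.2 to 62.9), 84.7 of Cldn4 (53.7 to 127.1) and 55.3 of Cldn3 (30.9 to 91.1). There, Krt8 (327.9 CPM) and Krt18 (309.4 CPM) were within counting error of the endoderm-like level, at 1.16 (0.934 to 1.44) and 0.996 (0.793 to 1.23), while Pdgfra had 0 UMIs, which allows up to 0.0984 of the endoderm-like level, and Gata6 3.47% of that level. These levels came from few cells: Krt8 and Krt18 were each detected in 7 of the 22 (31.8%), against 85.7% and 83% of -4OHT endoderm-like cells, and the 9 Krt7 UMIs came from 2 cells.

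Other junction and filament genes were read in the same classes. Jam2 was at 78.5 CPM in epiblast-like cells, 11.4 CPM in -4OHT endoderm-like cells and 4.39 CPM in +4OHT endoderm-like cells. Krt42 was at 39.6, 4.73 and 0.0234 CPM, the last from 2 UMIs. Dsp was at 6.84, 27.4 and 44.5 CPM. For these 3 genes the order of epiblast-like and endoderm-like cells was the order of Oct4+ and Pdgfra+ libraries in bulk. They were picked after their values were seen, so the shared order is no check of the bulk result. The count over all listed genes was not computed. In the feeder fibroblast-like cells, 20 in -4OHT and 31 in +4OHT, Cldn3 and Cldn4 had 0 UMIs, which allows up to 6.52 and 3.86 CPM by the exact intervals, and Krt8 was at 42.4 and 179.9 CPM.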

How the data were processed

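Bulk RNA-seq was made from 3 sorted populations with 3 libraries each, and single-cell RNA-seq from 2 cultures with 1 library each. The deposited bulk values are unnormalised read counts for each gene symbol, from a directional kit. Which aligner, build, annotation and strand setting produced them is not given in the sources used here. Deposited single-cell values are UMI counts by gene and barcode, from Cell Ranger 6.1.2 per the file headers and on mm10 per the labels. No column was left unused.

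The 8 members and the gene lists were chosen with earlier results of these data known. Named genes were the 8 members, the sort markers Pou5f1, Pdgfra, Gata6, Nanog and Cdx2, the 2 genes most like each member over 9 libraries, and in each list the 3 genes past the threshold that changed most. Cldn12, Perp, Marveld3, single class markers, and Jam2, Krt42 and Dsp in single cells were named beside a result after their values were seen.

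Bulk counts were filtered with filterByExpr (14185 genes left), scaled by TMM and compared by edgeR 4.0.16 (quasi-likelihood test, group as the only term, all 9 libraries, Benjamini-Hochberg adjustment) in R 4.3.3, with DESeq2 1.42.0 as an alternative. The steps were tested on simulated data. All pairs of replicates differed beyond counting noise (chi-square of 16.7 to 36.6 per degree of freedom). Deviations from group means of libraries with the same replicate number correlated at 0.293, 0.516 and 0.336 between DP and Pdgfra+, so the numbers pair these populations, as read from the counts. CPM per kilobase used the exons of GENCODE gene models.

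Barcodes with at least 1500 genes and at most 10% mitochondrial UMIs were kept, 11533 of 14179. They were clustered with scanpy 1.11.5 (2000 variable genes, 20 components, 20 neighbours, Leiden resolution 0.2) without 147 genes, the members and lists among them, which gave 8 clusters. A cluster took the class whose markers had the highest median level relative to their highest cluster, a rule set after the clusters were seen. The doublet caller marked 4.2% of -4OHT and 0.0798% of +4OHT cells and so did not work in the latter, and the 6% with the highest scores were left out only as an alternative. Poisson, binomial and Clopper-Pearson intervals are exact at 95% and cover counting error only.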

Additional observations from a re-analysis of the deposited data

Results flagged for a closer look

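In single cells the +4OHT level over the -4OHT level of the keratin pair lay on opposite sides of 1 in the 2 endoderm-like clusters that both libraries shared. For Krt8 the ratio was 0.921 in the Gkn2 and Gkn1 cluster and 1.20 in the Car4 and Pitx1 cluster, and for Krt18 it was 0.889 and 1.07. Counting intervals lay on 1 side of 1 in all 4 cases. With 1 library per condition the difference between the clusters was not tested.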

How the results depend on the processing

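The counts of members past the threshold were 0, 6 and 7 for DP against Pdgfra+, DP against Oct4+ and Oct4+ against Pdgfra+, and ranged from 0 to 0, 6 to 6 and 7 to 7 when each library was left out in turn. DP against Pdgfra+ gave 1, Cldn3, with no filter on low counts (1.82, adjusted p = 0.0498) and with the replicate block in 6 libraries or in 9 (1.93, adjusted p = 0.0453). Elsewhere the replicate block, where same-numbered libraries correlated at -0.07 to 0.168 and share only a number, left 6 and 7. The stricter filter left Krt7 and Cldn3 untested. Krt7 in Oct4+ against Pdgfra+ reversed to -0.83 without Oct4+ replicate 2 and to -0.38 without Pdgfra+ replicate 3, in a range of -0.83 to 0.58 over the libraries left out. Of 330 member fold changes under alternatives 325 kept their direction and side of the threshold. Over all genes, DP against Pdgfra+ had 552 calls, 860 in DESeq2, 1023 without a filter, 338 with the stricter one and 57 without Pdgfra+ replicate 3. Library totals without TMM moved the median of all genes to -0.29 in DP against Oct4+ and 0.29 in Oct4+ against Pdgfra+, and changed no member's call.

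The 2 members past 2-fold in endoderm-like cells of +4OHT were 2 without the shared barcodes (chosen after seeing the data), 1 at clustering resolution 0.6 and 1 with no filter on barcodes, and 0 after thinning, without doublet-ranked barcodes and with a stricter filter. Cldn7 reversed to 0.985 without doublet-ranked barcodes and 0.883 after thinning. The cause was not tested. Members lower in cells with a Pou5f1 UMI were 5 in the class and 1 in the Amn and Cubn cluster, an alternative chosen after seeing the data. By level alone, 6 of 8 members were higher in endoderm-like than epiblast-like cells in every alternative run for it, a count that includes Krt7, whose difference was not detectable. Neither this count nor those of the Pou5f1 split have a share of all genes beside them. The stricter filter left 0 trophectoderm-like cells, and resolution 0.6 gave 104 in -4OHT in place of 22. Depth limits Krt7 and Cldn3 in bulk, and 1 library per condition limits every 4OHT value.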
